A study of Mus musculus with 8 samples.

Results

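Wild-type (WT) CD8 and CD4 T cells that had been given to an allogeneic host were compared across all genes, to describe how the 2 lineages differ while they respond to the same host. CD4 T cells read peptides on MHC class II molecules and act largely through cytokines and through CD40 ligand, with which follicular helper cells support B cells. CD8 T cells read peptides on MHC class I molecules and kill target cells with perforin and granzymes. In graft-versus-host disease, donor T cells of both lineages attack tissues of the recipient. The comparison takes the 2 WT CD8 and the 2 WT CD4 libraries, 4 of the 8 libraries of the series, and every gene of the deposited table. Its 25078 gene rows include 12428 that passed a filter on low counts and were tested.

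The donors were C57BL/6 mice, and the recipients of all libraries were lethally irradiated WT BALB/c mice. These recipients also received T cell-depleted bone marrow of WT C57BL/6 donors. Donor T cells (H-2Kb+ TCRβ+, sorted as CD4+ or CD8+) were taken 6 days after hematopoietic cell transplantation (HCT) from the spleen, and a library pools cells of several recipients. The other 4 libraries are CD4 and CD8 T cells of the same kind from donors without STAT3 in T cells (STAT3KO), in which Cre recombinase driven by Cd4 sequences deletes floxed Stat3, and they were used to set the lineage difference beside a separate set of samples. The numbers of replicates are small (n = 2 in each group), and the labels do not say that replicates come from separate cohorts, so p-values measure the spread between these pools.

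The libraries held between 20171396 and 23282757 counts, and 3 counts corresponded to 0.129 to 0.149 CPM (counts per 1000000 counted reads, with TMM scaling for single genes and total counts for sums of markers). Where a pair of values stands against another, WT CD4 comes before WT CD8. Replicates differed by more than sampling noise (median chi-square per gene 6.19 in WT CD4 and 5.14 in WT CD8, where sampling alone gives 0.455). Stat3 itself was not called between the lineages (adjusted p 0.984), at 436 and 428 CPM in WT CD4 and 431 and 436 CPM in WT CD8 T cells. The STAT3KO libraries had 138 and 141 CPM in CD4 and 119.7 and 143 CPM in CD8 T cells, counted over the whole gene and not over the deleted exons alone, and an exon of Stat3 overlaps Stat5a. Cd4 reached 0.0712% and 0.486% of its WT CD4 level in WT CD8 replicates 1 and 2. Cd8a reached 0.322% and 1.13%, and Cd8b1 1.93% and 2.72%, of their WT CD8 levels in WT CD4 replicates 1 and 2. The summed level of 12 macrophage markers was 26.9 and 109 CPM in WT CD4 and 45.4 and 205 CPM in WT CD8 T cells, and was therefore higher in replicate 2 of each lineage. All 12 had values above 0 in the lineage contrast (median log2 fold change 0.64), and 1 of them, Cd68, was called; the part of such cells in the results was not tested. The 11 B cell markers summed to 15.1 to 24.4 CPM over the 4 libraries, with Ms4a1 at or under 0.0975 CPM in each. By total counts, Pax5 had 16.8 and 9.89 CPM in WT CD4 and 0.644 and 0.609 CPM in WT CD8. Cd79b had 0.892 and 1.27 CPM in WT CD4 and 12.15 and 11.9 CPM in WT CD8. Jchain was higher in replicate 2 of each lineage (1.7 and 5.4 against 1.8 and 10.5 CPM). The part of B lineage cells was not tested.

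The lineage difference was broad. Of 12428 genes tested, 2960 (23.8%) passed a Benjamini-Hochberg threshold of 0.05 in the edgeR quasi-likelihood test (called, in what follows), 1514 (12.2%) higher and 1446 (11.6%) lower in CD8 T cells. At least a 2-fold difference was seen for 1384 called genes (11.1%), 754 higher and 630 lower in CD8. A difference of at least 4-fold was seen for 447 genes (212 higher, 235 lower) and of at least 16-fold for 73 genes (30 higher, 43 lower). The median log2 fold change (CD8 minus CD4) over all genes tested was 0.0011, so values below can be read against 0. Libraries of the 2 lineages were fully separate for 59.3% of genes, which with 2 libraries a group is no criterion of change. Leaving out WT CD8 replicate 1 lowered the count to 1546 genes, and fitting the 4 WT libraries alone lowered it to 1919. Against the 23.8% of all genes, the share called was 100% of the proliferation list, 88.9% of helper and follicular helper genes, 79.2% of cytotoxic granule genes, 75% of NK receptor genes and 56.2% of interferon-stimulated genes. It was 51.4% of cytokine receptor, 46.4% of homing receptor, 46.2% of cytokine and 42.9% of JAK and STAT genes. It was 40% of antigen receptor signalling and 40% of apoptosis and survival genes. Killer cell lectin-like receptor genes reached 78.6%, TNF receptor genes 76.5%, costimulatory genes 75%, inhibitory receptor genes 71.4% and regulatory and anergy genes 65.2%. Schlafen genes reached 62.5%, sialyltransferase genes 53.3%, naive and memory genes 52.6% and guanylate-binding protein genes 45.5%. Integrin genes and the S100, annexin and galectin genes each reached 50%. It was 30% of chemokine, 26.9% of cholesterol, 22.7% of class I presentation and 14.5% of mitochondrial ribosomal protein genes. In bulk RNA, fewer cells of a kind and less RNA per cell cannot be told apart.

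The genes highest in CD8 T cells were led by those of the sorted coreceptor. By a fixed rule (called, mean log2 CPM of at least 3, groups not overlapping), the 12 genes with the highest log2 fold change were Cd8a (7.06), Smyd1 (5.74), Cd8b1 (5.41), Adgrg1 (5.06), Adgrg5 (4.46), Klrk1 (4.21), Itgax (4.10), Wdr95 (3.98), Klrb1b (3.96), Eomes (3.80), Crtam (3.78) and Xcl1 (3.69). Smyd1 (chromosome 6, 71213940 to 71262281), which encodes a histone methyltransferase best known from heart and skeletal muscle, had 0.2 and 0.803 CPM in WT CD4 and 27.7 and 27.2 CPM in WT CD8 T cells (SE 0.52, adjusted p 0.000339). It lies 60.5 kb from Cd8b1 (chromosome 6, 71322788 to 71337492), which in turn lies 35.9 kb from Cd8a. Between Smyd1 and Cd8b1 lie Krcc1 (log2 fold change -0.24, adjusted p 0.203) and Gm1070, a gene of very low counts that was called higher in CD8 (0.0499 and 0.142 against 0.519 and 0.59 CPM, log2 fold change 2.45, adjusted p 0.044) and kept its call in 6 of 18 alternative analyses, none of those that left out a library among them. Rmnd5a, 9.46 kb beyond Cd8a, had a log2 fold change of -0.057 (adjusted p 0.704). Adgrg1 (chromosome 8, 94977109 to 95014208), the adhesion receptor GPR56 of cytotoxic lymphocytes, had 0.599 and 1.13 CPM in WT CD4 and 31.6 and 27.1 CPM in WT CD8 T cells (SE 0.26, adjusted p 9.17e-05). Its neighbour Adgrg5 was 33.8 kb away and differed in the same direction, at 0.698 and 1.51 against 15.2 and 34.03 CPM. The closest gene to Adgrg1, Adgrg3 (3.48 kb), was not called (log2 fold change -0.95, adjusted p 0.27).

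Itgax, which encodes the CD11c integrin chain, had 15.8 and 13.8 CPM in WT CD4 and 274 and 231 CPM in WT CD8 T cells (log2 fold change 4.10, SE 0.18, adjusted p 3.77e-05). CD11c is also a dendritic cell marker, and it carried most of the dendritic list in the CD8 libraries (summed level 41.9 and 50.1 CPM in WT CD4, 282 and 290 CPM in WT CD8). Flt3 and Xcr1, genes of the same list, were at or under 0.0859 CPM in each of the 4 libraries. The class II genes of the list were present at low levels and were highest in WT CD8 replicate 2. H2-Aa had 0.744 and 3.7 CPM in WT CD4 and 0.515 and 7.74 CPM in WT CD8 T cells, and Cd74 had 10.4 and 15.4 CPM in WT CD4 and 2.45 and 22 CPM in WT CD8. Neither was called, and the part of dendritic cells in the level of Itgax was not tested. Eomes, a T-box factor of cytotoxic lymphocytes, had 3.74 and 2.27 CPM in WT CD4 and 45.6 and 37.9 CPM in WT CD8 T cells. Crtam, a surface receptor of activated cytotoxic T cells, had 7.23 and 11.2 CPM in WT CD4 and 119 and 135 CPM in WT CD8. Xcl1, a chemokine that attracts cross-presenting dendritic cells, varied between replicates, with 2.79 and 0.567 CPM in WT CD4 and 30.5 and 12.8 CPM in WT CD8 T cells (SE 0.70, adjusted p 0.00784). Exons of Eomes, Klrb1b and Xcl1 overlap other annotated genes, and the strand setting of the counting is not given in the sources used here. Each of the 12 kept its call under every alternative analysis, leaving out single libraries included.

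The promoters of the 3 highest of these genes with an entry in the RefSeq promoter table are shown to let the sequences be read beside the expression values. Each run is the 250 bases before the start site on GRCm38.p6, 5′ to 3′ on the strand of the gene, and capitals mark letters that match one of 6 motifs on either strand. The motifs were the RUNX core TGTGGT, the T-box letters GGTGTGA, the AP-1 site TGANTCA, the TCF and LEF letters CTTTGAA, the E-box CAGGTG and the GAS letters TTCNNNGAA of STAT factors. The stretches are chr6:71373177-71373426 (plus strand), chr6:71262282-71262531 (minus strand) and chr8:94976859-94977108 (plus strand).
Cd8a: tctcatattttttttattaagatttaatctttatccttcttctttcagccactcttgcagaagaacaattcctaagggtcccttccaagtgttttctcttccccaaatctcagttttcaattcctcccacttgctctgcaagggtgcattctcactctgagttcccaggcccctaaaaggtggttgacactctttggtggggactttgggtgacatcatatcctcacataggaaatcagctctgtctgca
Smyd1: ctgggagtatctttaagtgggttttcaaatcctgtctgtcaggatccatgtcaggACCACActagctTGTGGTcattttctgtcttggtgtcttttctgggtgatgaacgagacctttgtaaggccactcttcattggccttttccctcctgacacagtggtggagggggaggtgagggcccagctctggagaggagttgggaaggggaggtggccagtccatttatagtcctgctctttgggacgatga
Adgrg1: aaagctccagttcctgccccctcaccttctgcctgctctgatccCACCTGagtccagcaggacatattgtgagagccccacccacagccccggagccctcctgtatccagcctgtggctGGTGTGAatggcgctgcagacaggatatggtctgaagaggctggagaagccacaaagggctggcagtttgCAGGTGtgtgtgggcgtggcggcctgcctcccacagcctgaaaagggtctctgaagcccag
The Cd8a stretch held 0 matches. The Smyd1 stretch held 2 RUNX cores, 195 to 190 and 183 to 178 bases before the start site. The Adgrg1 stretch held 1 T-box match (131 to 125 bases before the start) and 2 E-boxes. Among 32851 promoter stretches of the same length in the table, the RUNX core was found in 14%, the T-box letters in 3.33%, AP-1 in 6.75%, the TCF and LEF letters in 4.46%, the E-box in 17.2% and GAS in 7.02%. Matches are letters only, and enhancers further away were not examined.

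**Figure D1:**
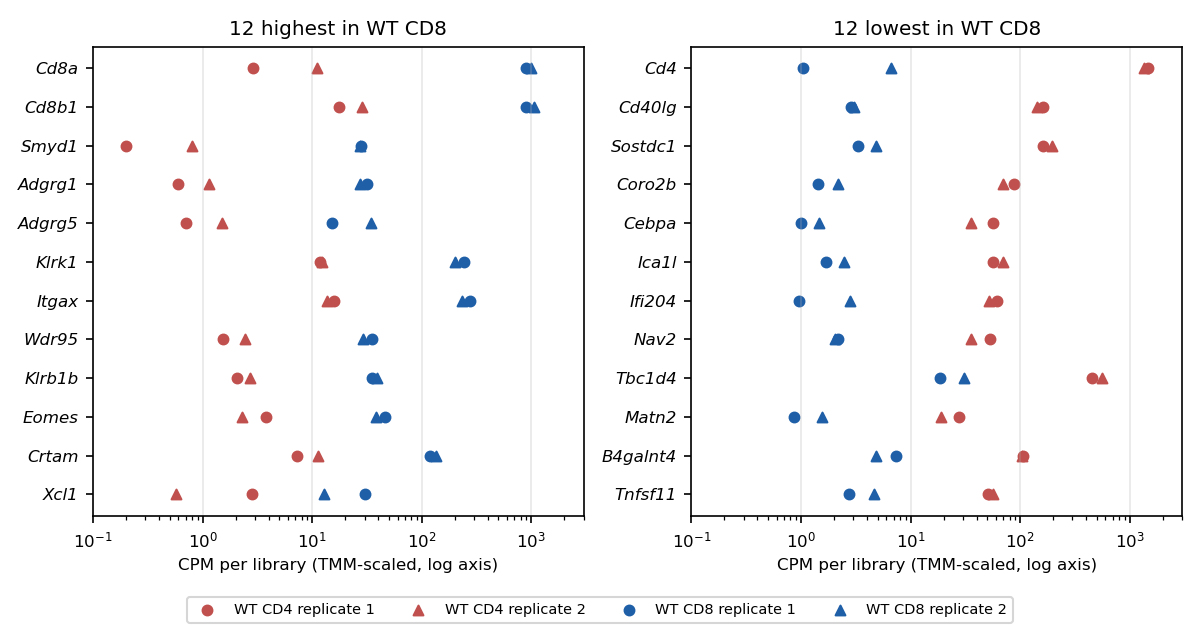
Expression of the 24 leading genes of the comparison of WT CD8 with WT CD4 T cells (12 in each direction), as TMM-scaled CPM per library on a log axis. Circles are replicate 1 and triangles replicate 2, red is WT CD4 and blue is WT CD8, and for each of the 24 genes the 2 groups are separate.

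The genes lowest in CD8 T cells were Cd4 (-8.52), Cd40lg (-5.68), Sostdc1 (-5.44), Coro2b (-5.44), Cebpa (-5.21), Ica1l (-4.93), Ifi204 (-4.91), Nav2 (-4.41), Tbc1d4 (-4.35), Matn2 (-4.24), B4galnt4 (-4.11) and Tnfsf11 (-3.85). Cd40lg (chromosome X, 57212143 to 57224042), the ligand through which helper T cells activate B cells and dendritic cells, had 161 and 141 CPM in WT CD4 and 2.85 and 3.03 CPM in WT CD8 T cells (SE 0.17, adjusted p 1.96e-05). Tnfsf11, which encodes RANK ligand of the same family, had 50.6 and 56.5 CPM in WT CD4 and 2.72 and 4.67 CPM in WT CD8 (SE 0.58, adjusted p 0.0027). Sostdc1, a secreted BMP and WNT antagonist known from follicular helper cells, had 160.1 and 195 CPM in WT CD4 and 3.33 and 4.8 CPM in WT CD8 T cells. In each of these 3 genes the CD8 libraries were low together and far under the CD4 libraries.

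Among the other genes low in CD8, Tbc1d4, which encodes a Rab GTPase-activating protein of glucose transporter traffic, had 449 and 553 CPM in WT CD4 and 18.5 and 30.6 CPM in WT CD8 T cells (SE 0.34, adjusted p 0.000217). Cebpa, a transcription factor of myeloid and liver cells, had 56.3 and 35.3 CPM in WT CD4 against 0.994 and 1.47 CPM in WT CD8 T cells (SE 0.38, adjusted p 0.000177). The part of myeloid cells in the level of Cebpa was not tested. Ifi204, an interferon-inducible sensor of DNA, had 61.7 and 51.5 CPM in WT CD4 and 0.951 and 2.78 CPM in WT CD8 T cells. Coro2b, an actin-binding coronin, had 88.2 and 69.1 CPM in WT CD4 and 1.43 and 2.19 CPM in WT CD8. An exon of Ica1l overlaps Fam117b on the other strand and exons of Cebpa, Matn2 and Nav2 overlap other annotated genes. The calls of all 12 genes were kept under every alternative.

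The promoters of the 3 lowest genes with an entry are chr9:62537045-62537294 (minus strand), chr7:35119043-35119292 (plus strand) and chr1:60043123-60043372 (minus strand), printed as above with capitals for the 6 motifs.
Coro2b: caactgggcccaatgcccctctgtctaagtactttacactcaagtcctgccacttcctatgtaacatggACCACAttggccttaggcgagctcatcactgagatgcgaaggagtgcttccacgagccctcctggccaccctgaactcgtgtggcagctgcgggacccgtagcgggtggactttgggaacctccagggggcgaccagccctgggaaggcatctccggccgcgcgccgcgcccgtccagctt
Cebpa: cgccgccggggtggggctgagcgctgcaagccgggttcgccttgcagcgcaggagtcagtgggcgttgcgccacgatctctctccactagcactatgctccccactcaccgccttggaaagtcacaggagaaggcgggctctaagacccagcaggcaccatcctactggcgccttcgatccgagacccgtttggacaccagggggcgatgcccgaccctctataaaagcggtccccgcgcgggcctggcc
Ica1l: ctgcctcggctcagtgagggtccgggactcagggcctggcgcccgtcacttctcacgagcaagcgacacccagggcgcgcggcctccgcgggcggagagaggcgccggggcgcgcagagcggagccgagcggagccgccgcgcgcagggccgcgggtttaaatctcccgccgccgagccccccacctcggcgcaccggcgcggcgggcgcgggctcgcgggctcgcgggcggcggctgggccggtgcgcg
The Coro2b stretch held 1 RUNX core (181 to 176 bases before the start), and the Cebpa and Ica1l stretches held 0 matches. GC content was 62%, 66.4% and 80.4% in these stretches, against 42.8%, 51.6% and 60.8% in those of Cd8a, Smyd1 and Adgrg1. Shares of motifs were not compared between called genes and all genes, because a promoter was matched for 79.1% of the genes tested and for 74.5% of the genes at least 4-fold higher in CD8, under the 80% set for such a check.

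Transcription factors differed in both directions. Of 43 tested factors of T cell lineages and states, 14 were called, 4 higher and 10 lower in CD8 T cells. The share called was 32.6%, beside 23.8% of all genes. The median log2 fold change of the 43 was -0.13 (0.018 without WT CD4 replicate 1). The 4 higher factors were Eomes, Prdm1 (encoding Blimp-1, 81.6 and 55.7 CPM in WT CD4 and 169 and 148 CPM in WT CD8, log2 fold change 1.21, SE 0.19, adjusted p 0.00326), Irf8 (1.001) and the Ikaros factor Ikzf3 (0.58). The lowest was Maf, a factor of helper cells that make IL-4, IL-10 and IL-21, at 387 and 238 CPM in WT CD4 and 37.04 and 31.7 CPM in WT CD8 T cells (log2 fold change -3.18, SE 0.27, adjusted p 0.000251). Tcf7, which encodes the TCF-1 factor of naive, memory and follicular helper cells, had 1452 and 1345 CPM in WT CD4 and 285 and 386 CPM in WT CD8 T cells (log2 fold change -2.06, SE 0.17, adjusted p 0.000235). Egr2 (-2.01) and Egr3 (-2.28), which are induced by antigen receptor signals, Ikzf2 (-1.95), Satb1 (-1.07) and Bach2 (-1.10) were also lower in CD8. Lef1, the partner of TCF-1, had a log2 fold change of -0.32 and was not called (adjusted p 0.143).

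The factors that commit thymocytes to the CD4 or CD8 lineage differed by less than the leading genes. Zbtb7b, which encodes the CD4 lineage factor ThPOK, had 164 and 112 CPM in WT CD4 and 68.9 and 46.7 CPM in WT CD8 T cells (log2 fold change -1.25, SE 0.27, adjusted p 0.0144), and it was not called without WT CD4 replicate 1 or without WT CD8 replicate 2. Runx3, the CD8 lineage factor that silences Cd4, had 173 and 121 CPM in WT CD4 and 257 and 193 CPM in WT CD8 T cells (log2 fold change 0.62, adjusted p 0.0947). The groups did not overlap, but the difference missed the threshold. Tbx21, which encodes T-bet, had 112 and 46.7 CPM in WT CD4 and 184 and 87.1 CPM in WT CD8 T cells, and the groups overlapped (log2 fold change 0.77, adjusted p 0.292). Gata3, a factor of the CD4 lineage and of type 2 helper cells, had 218 and 115 CPM in WT CD4 and 106 and 71.3 CPM in WT CD8 (log2 fold change -0.91, adjusted p 0.0771). These comparisons took the libraries as unpaired. With the replicate number as a block, 8 of the 43 factors were called higher and 19 lower, beside 4 and 10 without it. Which factors were called thus depended on whether same-numbered libraries form pairs, which the labels do not say. Calls of Irf8 and Batf were lost without WT CD8 replicate 1, that of Ikzf3 without WT CD4 replicate 2 or WT CD8 replicate 1, and that of Ets1 (-0.43) without WT CD4 replicate 1 or either WT CD8 replicate. The promoter stretches of the 2 lineage factors are chr4:135120395-135120644 (plus strand) and chr3:89393379-89393628 (minus strand), at the start site given by the deposited table, and Runx3 has other start sites that are not shown.
Runx3: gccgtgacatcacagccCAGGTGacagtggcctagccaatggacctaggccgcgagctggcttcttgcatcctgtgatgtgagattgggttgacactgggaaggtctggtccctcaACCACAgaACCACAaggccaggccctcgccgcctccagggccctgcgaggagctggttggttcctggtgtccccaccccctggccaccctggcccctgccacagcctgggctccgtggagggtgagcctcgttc
Zbtb7b: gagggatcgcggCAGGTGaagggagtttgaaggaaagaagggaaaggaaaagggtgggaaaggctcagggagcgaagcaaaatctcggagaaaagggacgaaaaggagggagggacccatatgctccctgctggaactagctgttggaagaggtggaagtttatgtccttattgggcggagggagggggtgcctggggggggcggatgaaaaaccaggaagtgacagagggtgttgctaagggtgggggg
The Runx3 stretch held 2 RUNX cores, 134 to 129 and 126 to 121 bases before the start, and 1 E-box. The Zbtb7b stretch held 1 E-box.

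Genes of the cytotoxic granule were higher in CD8 T cells. Of 24 tested (of 27 in the table), 16 were called higher and 3 lower, with a median log2 fold change of 1.21. Gzmb, the granzyme that activates caspases in target cells, had 533 and 469 CPM in WT CD4 and 3384 and 2914 CPM in WT CD8 T cells (log2 fold change 2.65, SE 0.13, adjusted p 6.15e-05). Gzma, a tryptase of the same granules, had 71.99 and 77.5 CPM in WT CD4 and 1038 and 865 CPM in WT CD8 T cells (log2 fold change 3.67, SE 0.24, adjusted p 0.000134). Prf1, which encodes the pore-forming perforin, had 50.99 and 45.4 CPM in WT CD4 and 446 and 328 CPM in WT CD8 (log2 fold change 3.004, SE 0.16, adjusted p 9.17e-05). All 3 were present in CD4 T cells too, several-fold under the CD8 level. On the length-normalized scale (mean RPKM), the order in CD8 was Gzmb (2066), Gzma (1071), Prf1 (187), Gzmk (129), Gzmc (6.38) and Gzmm (2.94). In CD4 it was Gzmb (331), Gzma (84.9), Prf1 (23.5), Gzmk (17.2), Gzmc (2.91) and Gzmm (1.28).

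Of 10 granzyme genes listed, 6 passed the filter, and these 6 were called higher in CD8. Of 28 serpin genes of clade B, 6 passed the filter, and these 6 were called higher as well. Serpinb9, the inhibitor of granzyme B, had 342 and 301 CPM in WT CD4 and 823 and 726 CPM in WT CD8 T cells (log2 fold change 1.27, SE 0.11, adjusted p 0.000331). Serpinb6b had 493 and 402 CPM in WT CD4 and 1214 and 1049 CPM in WT CD8 (log2 fold change 1.34, SE 0.13, adjusted p 0.000411), and Serpinb1a had 24.4 and 20.1 CPM in WT CD4 and 77.4 and 66.4 CPM in WT CD8 (log2 fold change 1.69). Fasl, the death ligand, had 45.5 and 40.8 CPM in WT CD4 and 108 and 100.3 CPM in WT CD8 T cells (log2 fold change 1.27, SE 0.24, adjusted p 0.00752). Ctsc (1.21), the protease that matures granzymes, Ctsw (1.62) and Nkg7 (1.44) were higher as well. The 3 members called lower in CD8 were Srgn, the proteoglycan core on which granule proteins are stored (1372 and 1725 against 537 and 613 CPM, log2 fold change -1.43, SE 0.15, adjusted p 0.000543), Stx11 (-0.96) and Lamp2 (-0.70). Gzmf was near the limit of detection, with 3 and 1 counts in WT CD4 and 25 and 28 counts in WT CD8 libraries. Its WT CD4 counts were under the filter's minimum of 10, so it passed through other groups. Its direction therefore adds nothing to the count of granzymes called higher. The calls of Gzmc and Gzmf were lost without WT CD4 replicate 2 or WT CD8 replicate 1. Granzyme and serpin genes lie in clusters of similar copies, and an exon of Ctsw overlaps Fibp, so single values may share reads with a neighbour.

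Receptors of natural killer (NK) cells and their adaptors followed the same direction. Of 20 tested (of 27 in the table), 14 were called higher and 1 lower in CD8, with a median log2 fold change of 1.80. Klrk1, which encodes the activating receptor NKG2D, had 11.7 and 12.2 CPM in WT CD4 and 244 and 199 CPM in WT CD8 T cells (log2 fold change 4.21, SE 0.17, adjusted p 3.64e-05). Klrc1, which encodes the inhibitory NKG2A chain, had 37.97 and 35.4 CPM in WT CD4 and 207 and 177 CPM in WT CD8 T cells, and its partner Klrd1 (CD94) had 64.01 and 46.1 CPM in WT CD4 and 173 and 142 CPM in WT CD8 (log2 fold changes 2.39 and 1.52). Cd244a, which encodes 2B4, had 0.499 and 0.803 CPM in WT CD4 and 14.8 and 13.6 CPM in WT CD8 T cells (log2 fold change 4.43, SE 0.40, adjusted p 0.000337). Cd160 (2.09) and Cd226 (1.41), which bind HVEM and CD155, were higher too (an exon of Cd160 overlaps Pdzk1), and Klrb1f was the member lower in CD8 (-1.21). Hcst, which encodes the DAP10 adaptor of NKG2D, had a log2 fold change of -0.19 and was not called.

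The sort required TCRβ on the surface. Ncr1, a marker of NK cells, had a count in 1 of the 4 WT libraries only (0.129 CPM in WT CD8 replicate 1). Klrb1c, another gene of the NK marker list, had 16.1 and 17.7 CPM in WT CD4 and 26.2 and 22.4 CPM in WT CD8 (by total counts). Of 6 T cell marker genes, 1 was called, Cd247, which encodes the zeta chain of the T cell receptor complex and was lower in CD8 (log2 fold change -0.71, adjusted p 0.00415). Cd3e, Cd3d and Cd3g were not called, with log2 fold changes of 0.19, -0.31 and -0.22. The 10 NK markers summed to 145 and 150 CPM in WT CD4 and 1580 and 1340 CPM in WT CD8 T cells, most of it Gzma and Prf1. Of the 6 NK markers tested, 5 were called higher in CD8 and 0 lower, with a median log2 fold change of 3.34. The part of NK cells in these values was not tested. By gene symbol, 14 of 37 killer cell lectin-like receptor genes passed the filter, of which 10 were called higher and 1 lower. This count of 11 calls fell to 7 without WT CD4 replicate 2. Among the genes called higher, Klrh1 had 2 and 0 counts in WT CD4 and 62 and 53 in WT CD8. Klra7 had 2 and 1 counts in WT CD4 and 36 and 18 in WT CD8. Both were under the filter's minimum count of 10 in WT CD4 and passed through other groups, so their direction adds nothing to the count. Most Klr genes lie in a cluster of similar sequences on chromosome 6, and counts of close copies may be shared.

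Genes of helper and follicular helper T cells were lower in CD8. Of 27 tested, 23 were called lower and 1 higher, with a median log2 fold change of -2.51. Icos, the costimulator that follicular helper cells depend on, had 2326 and 3162 CPM in WT CD4 and 646 and 797 CPM in WT CD8 T cells (log2 fold change -1.93, SE 0.20, adjusted p 0.000629). Bcl6, the repressor that defines follicular helper cells, had 114 and 90.3 CPM in WT CD4 and 9.94 and 13.5 CPM in WT CD8 T cells (log2 fold change -3.12, SE 0.25, adjusted p 0.000235). Cxcr5, the receptor that guides cells into B cell follicles, had 253 and 247 CPM in WT CD4 and 15.7 and 20.6 CPM in WT CD8 (log2 fold change -3.78, SE 0.26, adjusted p 0.000143). Il21, the follicular helper cytokine that acts on B cells and CD8 T cells, had 222 and 185 CPM in WT CD4 and 18.2 and 19.03 CPM in WT CD8 T cells (log2 fold change -3.45, SE 0.13, adjusted p 3.64e-05). In all 4 genes the CD8 libraries were close to each other and well under the CD4 libraries.

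Further members of this list were lower in CD8 as well. They included Tnfrsf4, which encodes OX40 (-2.51), Tnfsf8, which encodes CD30 ligand (-3.13), Btla (-2.28), Tox2 (-2.44), Angptl2 (-2.74), Slamf6 (-1.60) and Cd200 (-1.63). The receptor for IL-6 was lower in both its chains. Il6ra had 146 and 153 CPM in WT CD4 and 8.77 and 19.8 CPM in WT CD8 T cells (log2 fold change -3.39, SE 0.32, adjusted p 0.000388), and Il6st had 219 and 240.4 CPM in WT CD4 and 88.96 and 122 CPM in WT CD8 (log2 fold change -1.12). IL-6 is among the cytokines that activate STAT3. Ascl2 had 24 and 16 counts in WT CD4 and 0 counts in both WT CD8 libraries, and was thus at least 15.2-fold lower in CD8 against a floor of 3 counts over the group. It passed the filter through other groups than WT CD8, so its direction adds nothing to the count. The same holds for Il4, a member called lower, with 194 and 72 counts in WT CD4 and 2 and 2 counts in WT CD8. The exception was Pdcd1, which encodes PD-1 and was higher in CD8, at 340.4 and 233 CPM in WT CD4 and 592 and 418 CPM in WT CD8 T cells (log2 fold change 0.82, SE 0.23, adjusted p 0.038). The Pdcd1 call was kept in 10 of 18 alternative analyses. It was lost without WT CD4 replicate 2, WT CD8 replicate 1 or any 1 of the STAT3KO libraries, in a fit of the WT libraries alone and on log2(RPKM + 1) without a filter. The call of Sh2d1a (-0.82) was lost without WT CD8 replicate 1. The number of genes of this list called lower stayed between 22 and 23 when single WT libraries were left out. Exons of Bcl6, Cxcr5 and Sh2d1a overlap other genes.

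**Figure D2:**
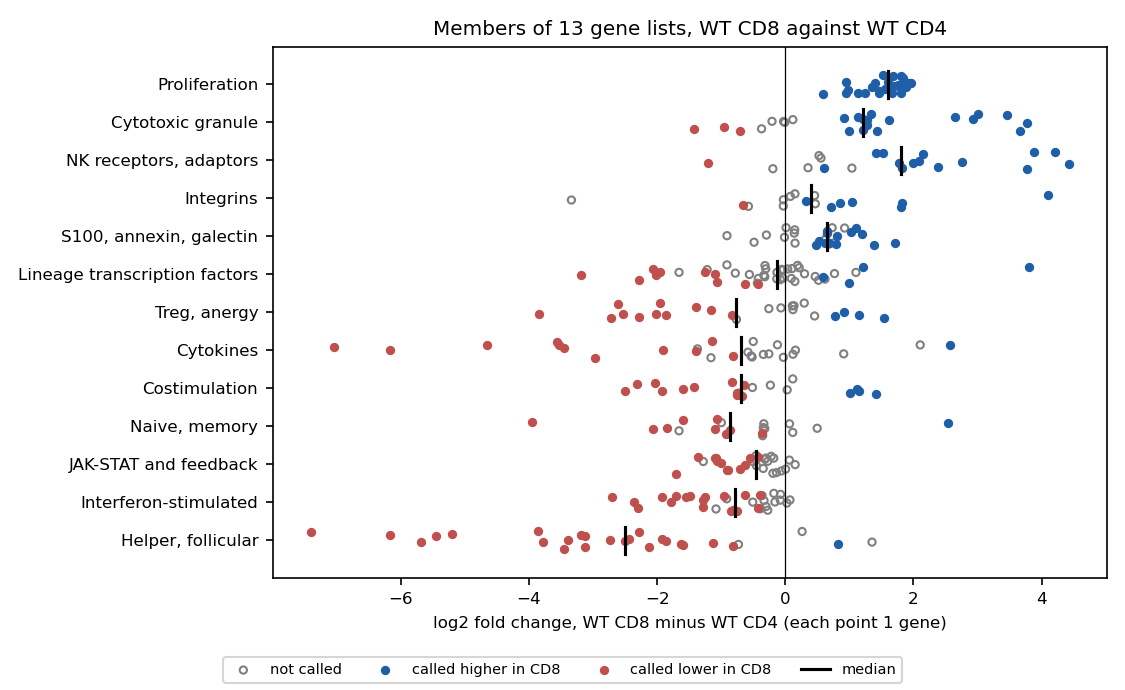
Log2 fold changes (WT CD8 minus WT CD4) of the tested members of 13 gene lists, each point 1 gene and each black bar the median of the list. Blue points were called higher and red points lower in CD8, and open points were not called; all 25 proliferation genes lie right of 0, and 23 of 27 helper and follicular genes were called left of it. Values beyond 6 in either direction belong to genes with at most 2 counts per library in 1 lineage and depend on the fit.

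Most cytokine genes with a lineage difference were lower in CD8. Of 26 tested (of 29 in the table), 11 were called lower and 1 higher, with a median log2 fold change of -0.70. Tnf had 36.4 and 29.1 CPM in WT CD4 and 8.65 and 8.8 CPM in WT CD8 T cells (log2 fold change -1.91, SE 0.15, adjusted p 0.000201). Lif, a cytokine of the IL-6 family, had 189 and 112 CPM in WT CD4 and 21.8 and 16.7 CPM in WT CD8 T cells (log2 fold change -2.96, SE 0.34, adjusted p 0.000833). Tgfb3 (-3.53), Il16 (-1.14, with an exon shared with Stard5) and Lta (-1.40) were lower too, the last not without WT CD8 replicate 1. Il2 was low in both lineages, with 106 and 76 counts in WT CD4 and 7 and 1 counts in WT CD8 libraries. Il4 had 194 and 72 counts in WT CD4 and 2 and 2 counts in WT CD8 libraries. Il3 had 18 and 13 counts in WT CD4 and 0 counts in WT CD8, at least 11.8-fold lower against the floor of 3 counts over the group. Il22, also called lower, had 74 and 21 counts in WT CD4 and 5 and 4 counts in WT CD8. Il2, Il3, Il4 and Il22 were under the filter's minimum count in WT CD8 and passed through other groups. Their direction therefore adds nothing to the count of cytokines called lower.

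Ifng, the cytokine most associated with both type 1 helper and killer cells, had 374 and 235 CPM in WT CD4 and 656 and 490.1 CPM in WT CD8 T cells, a log2 fold change of 0.91 that missed the threshold (SE 0.30, adjusted p 0.0608). Il10 (-0.26), Csf2 (-0.34), which encodes GM-CSF, and Osm (0.16) were not called. The cytokine called higher in CD8 was Il17a, at 1.3 and 1.18 CPM in WT CD4 and 10.1 and 4.72 CPM in WT CD8 T cells (log2 fold change 2.57, SE 0.60, adjusted p 0.0188). The CD8 replicates of Il17a differed widely, and its call was lost without either WT CD4 replicate or without WT CD8 replicate 1.

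Of 10 tested chemokine genes (of 14 in the table), 2 were called higher and 1 lower in CD8. Ccl5, which encodes RANTES of cytotoxic T cells, had 25.9 and 21.5 CPM in WT CD4 and 194 and 207 CPM in WT CD8 T cells (log2 fold change 3.08, SE 0.12, adjusted p 3.64e-05), and Xcl1 is described above. Ccl3 (1.29, adjusted p 0.125) and Ccl4 (1.36, adjusted p 0.0907) were not called. Ccl1 (-1.86) was called lower, but not without WT CD4 replicate 1 or either WT CD8 replicate.

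Cytokine receptors differed in both directions. Of 35 tested, 5 were called higher and 13 lower in CD8. Among those called lower, Il9r had 1 and 0 counts and Il17rb 2 and 1 counts in WT CD8. Both were under the filter's minimum count there and passed through other groups, so their direction adds nothing to the count of receptors called lower. The IL-2 receptor chains Il2rb (822 and 735 CPM in WT CD4 and 1363 and 1308 CPM in WT CD8, log2 fold change 0.78, SE 0.098, adjusted p 0.0013) and Il2ra (93.6 and 68.8 CPM in WT CD4 and 165 and 142 CPM in WT CD8, log2 fold change 0.92) were higher in CD8. The shared chain Il2rg (-0.19) was not called. Il7r, the receptor chain for the survival cytokine IL-7, was lower in CD8, with 576 and 703 CPM in WT CD4 and 288 and 384 CPM in WT CD8 T cells (log2 fold change -0.93, SE 0.17, adjusted p 0.00616). Il1r1, the signalling receptor for IL-1, had 78.5 and 101 CPM in WT CD4 and 7.52 and 10.6 CPM in WT CD8 T cells (log2 fold change -3.30, SE 0.28, adjusted p 0.00025), and its decoy Il1r2 was lower as well (-2.26), though not without WT CD8 replicate 1. Il18r1 (0.055) and Il18rap (0.012), which form the IL-18 receptor, were not called. Il18r1 had 904 and 763 CPM in WT CD4 and 891 and 842 CPM in WT CD8 T cells. Il27ra (-0.87) and Ifnar2 (-0.99), whose exons overlap other genes, were lower in CD8.

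Genes of the JAK and STAT pathway and its feedback inhibitors were called in 1 direction. Of 28 tested, 12 were called, each lower in CD8, with a median log2 fold change of -0.45. Among the kinases, Jak2 had 647 and 645 CPM in WT CD4 and 302 and 302 CPM in WT CD8 T cells (log2 fold change -1.10, SE 0.093, adjusted p 0.000269), while Jak1 (0.064) and Tyk2 (-0.18) were not called. Among the STAT factors, Stat5a had 185 and 209 CPM in WT CD4 and 104 and 109 CPM in WT CD8 T cells (log2 fold change -0.89, SE 0.098, adjusted p 0.00073). Stat5b (-0.54) was lower, and Stat3 (0.0047), Stat6 (-0.14), Stat2 (-0.27) and Stat4 (-0.32) were not called. Among the feedback genes, Cish had 29.7 and 21.5 CPM in WT CD4 and 7.13 and 8.59 CPM in WT CD8 T cells (log2 fold change -1.70, SE 0.20, adjusted p 0.00096). Socs1 (-1.37) and Socs3, at 369 and 367 CPM in WT CD4 and 163 and 206 CPM in WT CD8 T cells (log2 fold change -0.998), were lower, and so was the kinase Pim2 (-1.08). The call of Stat5b was lost without WT CD8 replicate 2 and that of Socs3 without WT CD8 replicate 1. An exon of Stat5a overlaps Stat3 on the other strand.

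Costimulatory receptors were more often lower in CD8. Of 20 tested, 11 were called lower and 4 higher. Tnfrsf25, which encodes death receptor 3, had 65.6 and 70.7 CPM in WT CD4 and 12.02 and 15.2 CPM in WT CD8 T cells (log2 fold change -2.32, SE 0.16, adjusted p 0.000145), and Tnfrsf14, which encodes HVEM, had 45.8 and 39.8 CPM in WT CD4 and 15.04 and 16.7 CPM in WT CD8 (log2 fold change -1.43). Tnfrsf9, which encodes 4-1BB, went the other way, with 68.9 and 55.5 CPM in WT CD4 and 152 and 124 CPM in WT CD8 T cells (log2 fold change 1.15, SE 0.15, adjusted p 0.00171). Cd48 (1.01), the ligand of 2B4, and Tnfrsf8 (1.13) were higher too. Of 17 tested TNF receptor genes by symbol, 9 were called lower and 4 higher. Tnfrsf19, called lower, had 1 and 4 counts in WT CD8, under the filter's minimum count, and passed through other groups. Its direction adds nothing to the count.

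Inhibitory receptors differed in both directions. Of 21 tested, 9 were called lower and 6 higher in CD8, and the 15 calls fell to 8 without WT CD8 replicate 1. Havcr2, which encodes TIM-3, had 83.97 and 58.9 CPM in WT CD4 and 342 and 294 CPM in WT CD8 T cells (log2 fold change 2.16, SE 0.19, adjusted p 0.000332). Tigit was lower in CD8, at 447 and 456 CPM in WT CD4 and 249 and 250.2 CPM in WT CD8 T cells (log2 fold change -0.86, SE 0.10, adjusted p 0.0011), as was Lilrb4a (-1.03). Ctla4 (1433 and 1788 against 822 and 1078 CPM, adjusted p 0.0695) and Lag3 (287 and 271 against 328 and 268 CPM, adjusted p 0.637) were not called. Cd274, which encodes PD-L1, had 183 and 154 CPM in WT CD4 and 92.3 and 97.1 CPM in WT CD8 T cells (log2 fold change -0.83, SE 0.18, adjusted p 0.0133), a call lost without WT CD4 replicate 1 or WT CD8 replicate 1. Lilrb4a shares an exon with another gene on its strand.

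In the list of regulatory T cell and anergy genes, 11 of 23 tested were called lower and 4 higher in CD8. Foxp3, the factor of regulatory T cells, was low in both lineages, with 12.2 and 10.3 CPM in WT CD4 and 12.3 and 12.1 CPM in WT CD8 T cells (log2 fold change 0.11, SE 0.27, adjusted p 0.809). Exons of Foxp3 overlap Ccdc22, Ppp1r3f and Flicr, so its counts may include reads of these genes. Izumo1r, which encodes folate receptor 4, had 57.4 and 60.6 CPM in WT CD4 and 3.63 and 4.59 CPM in WT CD8 T cells (log2 fold change -3.84, SE 0.22, adjusted p 0.000104). Nt5e, which encodes CD73, had 105 and 145 CPM in WT CD4 and 35.7 and 59.9 CPM in WT CD8 T cells (log2 fold change -1.39, SE 0.35, adjusted p 0.0246), and this call was lost without WT CD4 replicate 2 or WT CD8 replicate 1. Rnf128, the anergy-linked ubiquitin ligase GRAIL, was lower (-1.87), and Ndrg1 was higher (38.8 and 36.7 against 113 and 106 CPM, log2 fold change 1.54, SE 0.13, adjusted p 0.000283). Among 12 purinergic genes, which handle extracellular ATP and adenosine, P2rx7 stood out at 135 and 120.2 CPM in WT CD4 and 9.99 and 11.3 CPM in WT CD8 T cells (log2 fold change -3.58, SE 0.37, adjusted p 0.000591). Of those 12, 3 were called lower and 1 higher (33.3%, beside 23.8% of all genes), and 1 call remained without WT CD8 replicate 1.

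Homing receptors differed in both directions. Of 28 tested, 7 were called higher and 6 lower in CD8, 13 calls in all that fell to 8 without WT CD8 replicate 1. Cx3cr1, the fractalkine receptor of effector CD8 T cells, had 14.6 and 6.19 CPM in WT CD4 and 73.7 and 43.8 CPM in WT CD8 T cells (log2 fold change 2.50, SE 0.38, adjusted p 0.00297). Ccr4, a receptor of skin-homing helper cells, had 8.93 and 5.15 CPM in WT CD4 and 0.475 and 0.295 CPM in WT CD8 T cells (log2 fold change -4.17, SE 0.41, adjusted p 0.000466). Gpr15, a receptor for homing to the colon, had 11.1 and 5.39 CPM in WT CD4 and 0.389 and 0.716 CPM in WT CD8 (log2 fold change -3.88, SE 0.45, adjusted p 0.000883), with an exon that overlaps Cpox. Selplg, which encodes the P-selectin ligand, was higher in CD8 (506 and 525 against 876 and 926 CPM, log2 fold change 0.81). Ccr7 (-0.997), Cxcr3 (-0.33) and Cxcr6 (0.29) were not called. S1pr5 had 0 counts in both WT CD4 libraries and 14 and 8 counts in WT CD8, at least 6.45-fold higher in CD8 against 3 counts over the group, and was not called without WT CD8 replicate 1. It passed the filter through other groups than WT CD4, so its direction adds nothing to the count.

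Integrin chains differed in both directions. Of 16 tested, 7 passed the test as higher in CD8 and 1 as lower, while 8 did not pass. Itga4, the alpha chain of VLA-4, had 1291 and 1124 CPM in WT CD4 and 2500.4 and 2486 CPM in WT CD8 T cells (log2 fold change 1.05, SE 0.086, adjusted p 0.000245). Itgam, which encodes CD11b, had 36.9 and 22.2 CPM in WT CD4 and 114 and 93.02 CPM in WT CD8 T cells (log2 fold change 1.81, SE 0.22, adjusted p 0.00121). The part of macrophages in this difference was not tested. Itga1 (1.82) and Itga2 (0.85), which bind collagen, were higher as well. Itgb1, the beta chain that pairs with the products of Itga1, Itga2 and Itga4, was lower in CD8, at 1793 and 1693 CPM in WT CD4 and 1209 and 988 CPM in WT CD8 T cells (log2 fold change -0.67, SE 0.12, adjusted p 0.00667). Exons of Itga1, Itga4 and Itgam overlap other genes.

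The list of S100, annexin and galectin genes, which are raised in effector and memory T cells, had 13 of 26 tested genes called, each higher in CD8. The count fell to 8 without WT CD8 replicate 1. Lgals3 had 218 and 239.8 CPM in WT CD4 and 738 and 760.3 CPM in WT CD8 T cells (log2 fold change 1.71, SE 0.12, adjusted p 0.000143), and Lgals1 had 667 and 670.2 CPM in WT CD4 and 1817 and 1656 CPM in WT CD8 (log2 fold change 1.38, SE 0.13, adjusted p 0.000362). Anxa2 (1.10), Anxa6 (1.03) and Vim (1.20) were also higher. Among 15 tested sialyltransferases, which cap surface glycans, 6 were called lower and 2 higher, and the 8 calls fell to 5 without WT CD8 replicate 1. St6galnac1 and St8sia6, both called lower, were under the filter's minimum of 10 counts in WT CD8 and passed through other groups. Their direction adds nothing to the count. St3gal6, which helps to build selectin ligands, was higher (31.5 and 25.1 against 90.9 and 87.8 CPM, log2 fold change 1.66, SE 0.14, adjusted p 0.000283), with an exon that overlaps Dcbld2, and St3gal2 was lower (48 and 39.6 against 9.81 and 8.97 CPM, log2 fold change -2.22, SE 0.21, adjusted p 0.000393).

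Genes of naive and memory T cells were lower in CD8 for 9 of 19 tested, and 1 was higher. Besides Tcf7 and Il7r, the lower genes included the survival gene Bcl2 (290.2 and 294 CPM in WT CD4 and 147 and 175 CPM in WT CD8, log2 fold change -0.86, SE 0.12, adjusted p 0.00189) and Slamf6 (1257 and 1658 against 422 and 538 CPM). Ly6c2, a marker of activated and memory CD8 T cells, was higher, at 27.3 and 30.9 CPM in WT CD4 and 164 and 175 CPM in WT CD8 T cells (log2 fold change 2.54, SE 0.17, adjusted p 0.000125). Its near copy Ly6c1 had 4.89 and 10.4 CPM in WT CD4 and 0.432 and 0.547 CPM in WT CD8 and was lower (-3.95), and reads of these copies may have been shared. Of 45 tested genes of antigen receptor signalling, 12 were called lower and 6 higher. Cd247, which encodes the zeta chain, had 715 and 792 CPM in WT CD4 and 457 and 467 CPM in WT CD8 T cells (log2 fold change -0.71, SE 0.12, adjusted p 0.00415), and Trat1 had 8.68 and 13.7 CPM in WT CD4 and 0.173 and 0.59 CPM in WT CD8 (log2 fold change -4.85, SE 0.49, adjusted p 0.000504). Lat2 (0.898 and 2.41 against 19.9 and 14.7 CPM, log2 fold change 3.38, SE 0.39, adjusted p 0.000842), Ubash3b (1.28) and Tec (1.12) were higher in CD8, and Lck (0.035) and Zap70 (-0.34, adjusted p 0.15) were not called. Exons of Cd247 and Lat2 overlap other genes on the opposite strand.

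All 25 genes of the proliferation list were called higher in CD8 T cells, with a median log2 fold change of 1.61 and values between 0.59 (Pcna) and 1.96 (Ccnb2). Mki67, which encodes the Ki-67 antigen of cycling cells, had 739 and 503 CPM in WT CD4 and 2036 and 1526 CPM in WT CD8 T cells (log2 fold change 1.52, SE 0.22, adjusted p 0.00217). Among genes of mitosis, Ccnb2, which encodes a mitotic cyclin, had 51.1 and 47.96 CPM in WT CD4 and 201 and 186 CPM in WT CD8 T cells (log2 fold change 1.96, SE 0.096, adjusted p 6.91e-05), and Birc5, which encodes survivin of the chromosomal passenger complex, had 41.7 and 45.2 CPM in WT CD4 and 149 and 155 CPM in WT CD8 (log2 fold change 1.81, SE 0.11, adjusted p 0.000107). Among genes of DNA replication, Mcm5 had 128 and 98.2 CPM in WT CD4 and 408 and 310.2 CPM in WT CD8 T cells (log2 fold change 1.67, SE 0.18, adjusted p 0.000645), and the nucleotide reductase gene Rrm1 had 167 and 167 CPM in WT CD4 and 495 and 431 CPM in WT CD8 (log2 fold change 1.47, SE 0.11, adjusted p 0.000191). The groups did not overlap for any of the 25 genes, beside 59.3% of all genes tested. Between 23 and 25 genes were called when single WT libraries were left out, Mcm2 and Pcna being lost without WT CD4 replicate 2 or WT CD8 replicate 1, and Pcna also without WT CD4 replicate 1.

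**Figure D3:**
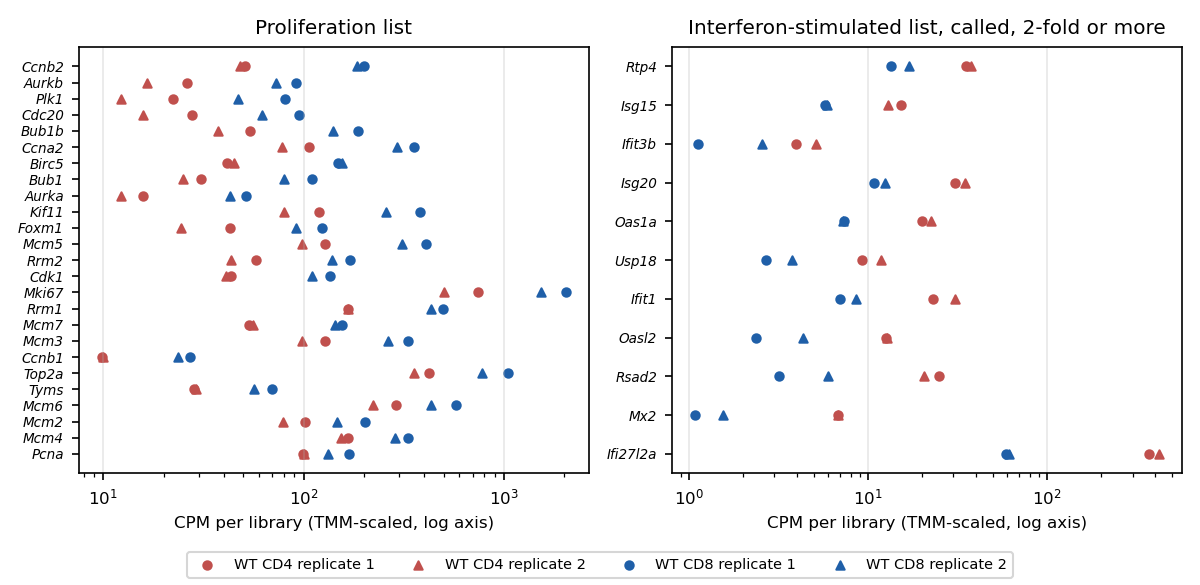
Expression of the 25 proliferation genes and of the called interferon-stimulated genes with a difference of at least 2-fold in the 4 WT libraries, as TMM-scaled CPM on a log axis. Red is WT CD4 and blue is WT CD8, circles are replicate 1 and triangles replicate 2; the blue points lie right of the red ones for the proliferation genes and left of them for the interferon-stimulated genes plotted.

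Interferon-stimulated genes were lower in CD8 T cells. Of 32 tested, 18 were called, each lower, with a median log2 fold change of -0.78, and 12 to 16 remained called when single WT libraries were left out (12 without WT CD8 replicate 1). Ifi27l2a had the largest fold of the list, with 369 and 421 CPM in WT CD4 and 59.3 and 61.7 CPM in WT CD8 T cells (log2 fold change -2.71, SE 0.15, adjusted p 9.17e-05). Rsad2, which encodes viperin, had 25 and 20.5 CPM in WT CD4 and 3.2 and 5.98 CPM in WT CD8 T cells (log2 fold change -2.30, SE 0.37, adjusted p 0.00387). Ifit1, which binds foreign RNA, had 23 and 30.7 CPM in WT CD4 and 6.96 and 8.59 CPM in WT CD8 (log2 fold change -1.79, SE 0.22, adjusted p 0.00117). Isg15 (-1.28), Isg20 (-1.48), Usp18 (-1.70) and Oas1a (-1.55) were lower too. Irf7 (-0.36, adjusted p 0.142), Irf9 (-0.33, adjusted p 0.103) and Ifit2 (0.025, adjusted p 0.919) were not called. Of 11 tested guanylate-binding proteins, 5 were called, each lower (3 without WT CD4 replicate 2), among them Gbp9 (202 and 279.7 against 78.8 and 122 CPM) and Gbp6 (24.8 and 28.02 against 7.43 and 12.8 CPM). Of 8 tested Schlafen genes, 4 were lower and 1 higher (3 calls without WT CD4 replicate 2), and Slfn5 was the lowest of them (205 and 201 against 25.3 and 34.8 CPM, log2 fold change -2.75, SE 0.22, adjusted p 0.000204). Exons of Gbp6 and Gbp9 overlap related genes, and values of these families may share reads.

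Metabolic lists held calls in both directions, and several of the counts depended on 1 library. The share called was 32.3% of glycolysis, 33.3% of glutathione and thioredoxin, 43.8% of fatty acid and 26.9% of cholesterol genes. For all genes it was 23.8%. Of 31 tested glycolysis genes, 6 were called higher and 4 lower, and the 10 calls fell to 5 without WT CD8 replicate 1. Ldhb, the lactate dehydrogenase chain that favours pyruvate, had 5.59 and 8.36 CPM in WT CD4 and 1.64 and 1.26 CPM in WT CD8 T cells (log2 fold change -2.26, SE 0.32, adjusted p 0.00226), and Aldoc was lower as well (-2.12). Eno3 was higher, at 8.03 and 11.1 CPM in WT CD4 and 46.2 and 38.5 CPM in WT CD8 T cells (log2 fold change 2.15, SE 0.17, adjusted p 0.000235), as was the glucose transporter Slc2a3 (140.4 and 117 against 209.9 and 214 CPM, log2 fold change 0.72, SE 0.12, adjusted p 0.00373). Slc2a1, which encodes GLUT1, was not called (65.1 and 60.2 against 68.99 and 70.5 CPM, adjusted p 0.308). Hk2, the inducible hexokinase, had 53.2 and 39.6 CPM in WT CD4 and 69.5 and 73.6 CPM in WT CD8 T cells (log2 fold change 0.62, SE 0.15, adjusted p 0.0212), a call lost without WT CD4 replicate 2 or either WT CD8 replicate.

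Of 36 tested glutathione and thioredoxin genes, 9 were called higher and 3 lower (5 calls without WT CD8 replicate 2). Gpx8, called higher, was under the filter's minimum of 10 counts in WT CD4 and passed through other groups, so its direction adds nothing to the count. Mgst3 (0.698 and 0.378 against 2.03 and 2.53 CPM, log2 fold change 2.08, SE 0.43, adjusted p 0.0118) and Gsto1 (15.2 and 21.9 against 45.04 and 52.7 CPM, log2 fold change 1.40, SE 0.18, adjusted p 0.00143), both glutathione transferases, were higher. Gclc, the rate-limiting enzyme of glutathione synthesis, was not called (-0.10, adjusted p 0.689). Idh2, the mitochondrial isocitrate dehydrogenase that makes NADPH, was lower (25.3 and 26.2 against 9.08 and 9.85 CPM, log2 fold change -1.45, SE 0.18, adjusted p 0.00126). Of 32 fatty acid genes, 11 were called higher and 3 lower (6 calls without WT CD8 replicate 1), including Fabp5 (2.29 and 2.5 against 7.95 and 7.5 CPM, log2 fold change 1.68, SE 0.22, adjusted p 0.00156) and Acadl (0.87). Of 26 cholesterol genes, 5 were higher and 2 lower (3 calls without WT CD8 replicate 1). The cholesterol exporter Abca1 had 70.6 and 158 CPM in WT CD4 and 9.21 and 35.04 CPM in WT CD8 (log2 fold change -2.37, SE 0.63, adjusted p 0.0302). Of 16 transporters of amino acids and nucleosides, 1 was called, Slc43a1 (-1.60), and it was not called without WT CD4 replicate 2 or WT CD8 replicate 1. The call of Mgst3 was lost without replicate 2 of either lineage, and that of Abca1 without WT CD4 replicate 2 or WT CD8 replicate 1.

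Genes of protein synthesis and respiration gave few calls in the fit without a block. Of 78 cytosolic ribosomal protein genes, 0 passed the edgeR quasi-likelihood test (median log2 fold change -0.195), with 2 higher and 6 lower at an unadjusted p under 0.05, and DESeq2 and the edgeR likelihood-ratio test called 1 each. Of 76 mitochondrial ribosomal protein genes, 9 were called higher and 2 lower (median 0.20), and 1 call remained without WT CD8 replicate 1. Complex I subunits and assembly factors gave 4 higher calls of 44 (9.09%). Complex IV gave 2 of 12 (16.7%) and ATP synthase 2 of 17 (11.8%), beside 23.8% of all genes. The calls for complex I and for ATP synthase fell to 0 when 1 of the 4 WT libraries was left out. With the replicate number as a block, 2 cytosolic ribosomal protein genes were called higher and 17 lower. These counts were 23 and 3 for mitochondrial ribosomal proteins, 12 and 1 for complex I, 4 and 1 for complex IV and 5 and 0 for ATP synthase. Of 22 class I antigen presentation genes, 2 were called higher and 3 lower (2 calls without WT CD4 replicate 1). Of 25 apoptosis and survival genes, 5 were higher and 5 lower (6 calls without WT CD8 replicate 2). Fas, the receptor of the death ligand, had 69.3 and 102 CPM in WT CD4 and 23.6 and 33.5 CPM in WT CD8 T cells (log2 fold change -1.59, SE 0.25, adjusted p 0.00336), the direction opposite to Fasl.

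The same lineage comparison was made in STAT3KO T cells, whose 4 libraries share no sample with the WT libraries. There, 1555 genes (12.5%) were called, and 457 to 645 when 1 of the 4 STAT3KO libraries was left out. Of the 2960 genes called in WT, 2872 (97%) had the same sign in STAT3KO and 1328 (44.9%) were called in the same direction, which is 85.4% of the STAT3KO calls. Over all genes tested, log2 fold changes in WT and STAT3KO correlated too (Pearson r 0.8, Spearman rho 0.757). The share of same signs over all genes was not counted. Of the 447 genes that differed at least 4-fold in WT, 440 had the same sign and 276 were called in STAT3KO. Genes called in opposite directions were Actn1 (-0.36 in WT, 0.43 in STAT3KO) and Pkp4 (-0.59 and 0.54), 2 in all, named after their values were seen. The call of Actn1 in WT was lost without WT CD4 replicate 1 or either WT CD8 replicate, and that of Pkp4 without WT CD4 replicate 2 or either WT CD8 replicate. All 24 leading genes were called in the same direction in STAT3KO. Among these 24, STAT3KO and WT values were furthest apart for Cebpa (-5.21 in WT, -1.94 in STAT3KO), which had 5.1 and 7.95 CPM in STAT3KO CD4 and 1.3 and 2.07 CPM in STAT3KO CD8 T cells. Klrk1 (2.28) and Klrb1b (1.91) were also closer between the lineages in STAT3KO than in WT by value, and Crtam (4.73) and Smyd1 (6.52) further apart.

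A test of the difference between the WT and STAT3KO lineage effects (the interaction in the edgeR quasi-likelihood fit) called 0 genes, with 982 genes at an unadjusted p under 0.05 and a smallest adjusted p of 0.0916. The edgeR likelihood-ratio test called 137 genes, DESeq2 188 and the quasi-likelihood test without the filter on low counts 44, and the quasi-likelihood test with the replicate number as a block called 403. Whether genes differed between WT and STAT3KO thus depended on the fit, and the following list values are set side by side without a test of their difference. Of the 25 proliferation genes, 16 were called higher in STAT3KO CD8 T cells, with a median of 0.77 beside 1.61 in WT. The interaction had an unadjusted p under 0.05 for 19 of these genes (smallest adjusted p 0.105). For the cytotoxic granule the medians were 1.21 in WT and 0.37 in STAT3KO, with 16 of 24 genes at an unadjusted p under 0.05 (smallest adjusted p 0.13), and 9 genes were called higher and 1 lower in STAT3KO. For helper and follicular genes the medians were -2.51 and -1.61, with 20 of 27 called lower in STAT3KO, and for interferon-stimulated genes -0.78 and -0.895, with 19 of 32 called lower.

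**Figure D4:**
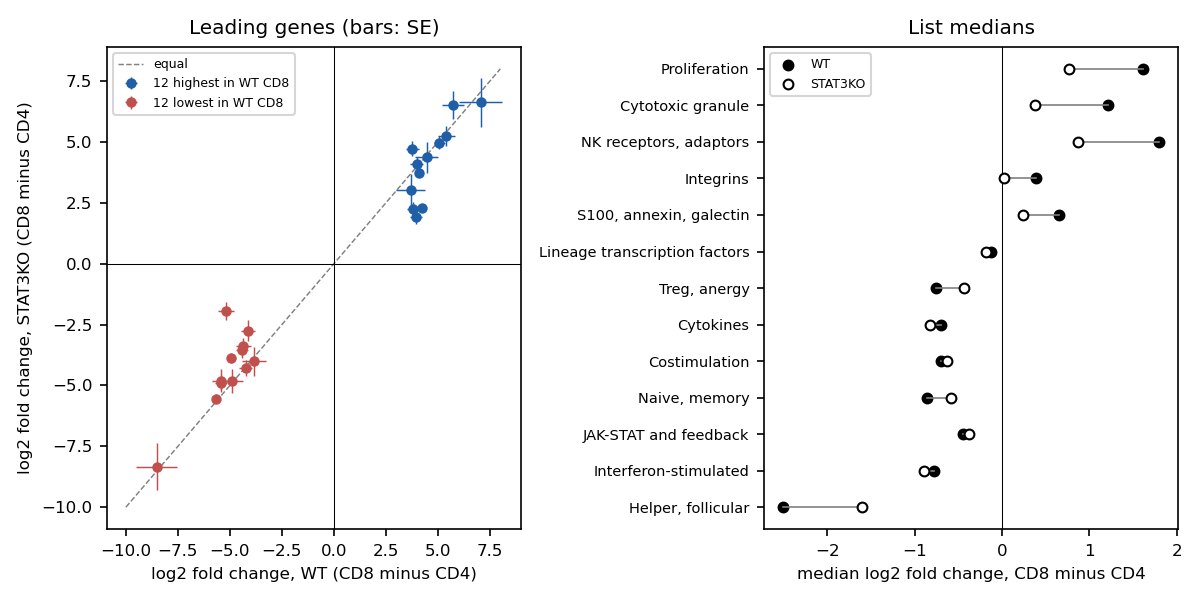
Lineage differences (log2 fold change, CD8 minus CD4) in WT and STAT3KO T cells. On the left, the 24 leading genes with bars for the SE lie in the same quadrant in both, and the dashed line marks equal values. On the right, filled circles are the list medians in WT and open circles those in STAT3KO, for proliferation 1.61 and 0.77.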

How the data were processed

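RNA of sorted donor CD4 or CD8 T cells from spleens of recipients on day 6 was sequenced, 2 pools per group in 4 groups. Per the study's methods and the labels, the authors aligned reads with STAR to mm10 (GRCm38) and counted them per RefSeq gene with HTSeq-count, and they deposited 1 table of raw counts and 1 table of RPKM values, which are read numbers divided by exon length and library size. The labels also carry culture and treatment text of an unrelated cell line and name another library kit than the methods, and this text was not used. The strand setting of counting is not given in the sources used here. Of 25078 gene rows, 26 carry dates in place of symbols and were not named.

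Counts were tested with edgeR 4.0.16 (R 4.3.3): TMM scaling, filterByExpr by group with a minimum count of 10 (12428 genes kept), 1 quasi-likelihood fit of all 8 libraries with a mean per group, two-sided tests, Benjamini-Hochberg adjustment over all genes tested and a threshold of 0.05. The fit was tested on simulated counts. Fold changes are CD8 minus CD4 on the log2 scale, and CPM are scaled by TMM. Levels of different genes were compared on the deposited RPKM only. Genes named were Stat3, the coreceptor genes, the 12 highest and 12 lowest called genes (groups fully separate, mean log2 CPM 3 or more), and members of gene lists, the largest changes and genes of known role first. Results for some genes are not reported here. The lists and genes were chosen with earlier results of these data known, so counts over lists are descriptions without a test. Alternatives used DESeq2 1.42.0, limma 3.58.1 on log2(RPKM + 1) and log2(RPKM + 0.1), other scaling, no filter, the 4 libraries of a comparison alone, a replicate block and leaving out each library. Floors of 3 counts cover counting error only. Promoter sequences are from RefSeq (GRCm38.p6), matched by symbol, chromosome and strand for 9836 of the genes tested, with 9423 starting at the start in the deposited table.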

Additional observations from a re-analysis of the deposited data

How the results depend on the processing

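The number of genes called between WT CD8 and WT CD4 T cells was 2960 and lay between 2601 and 3254 under other tests, scalings, filters and the RPKM scale. It was 1919 in a fit of the 4 WT libraries alone and 1546 to 2598 when 1 library was left out, the lowest without WT CD8 replicate 1, and fewer samples entered each of these fits. Genes called and at least 2-fold different numbered 797 with limma on log2(RPKM + 1) and 768 without a filter, where the pseudocount shrinks the folds of low genes, and 998 to 1328 with 1 library left out. The STAT3KO count was 457 to 1554 with 1 library left out. For the interaction, DESeq2 called 188 genes, the likelihood-ratio test 137 and the fit without a filter 44, against 0 in the quasi-likelihood fit and 0 to 0 with 1 library left out; the cause was not tested.

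With the replicate number as a replicate block, 5232 genes were called in WT, 3689 in STAT3KO and 403 for the interaction, and all 2960 genes called without the block stayed called. The labels do not say that a number marks a shared cohort, though the numbers that open the sample titles run in separate ranges for replicates 1 and 2, and deviations of same-numbered libraries correlated by 0.444 to 0.731 across genes between groups of 2. None of the genes called in WT changed sign under the alternatives run. The 24 leading genes kept their calls throughout. Stat3, which was not called, had log2 fold changes around 0 that turned sign: -0.0081 without a filter, -0.00798 on log2(RPKM + 1) with and without a filter, -0.0081 on log2(RPKM + 0.1), and -0.00037 to -0.025 with single libraries left out. Median log2 fold changes of some lists turned sign with single WT libraries left out: chemokines (1.32, then -0.089 without WT CD8 replicate 2), CC chemokines (0.72, then -0.416 without WT CD8 replicate 2), homing receptors (0.062, then negative without any 1 of the 4 WT libraries, at the lowest -0.36, and on log2(RPKM + 0.1)), lineage transcription factors, glutathione, purinergic, class I presentation (also in a fit of the WT libraries alone), membrane-spanning 4-domain, G protein signalling regulator, semaphorin and ATP synthase genes. Beside single genes, lost calls are named mainly for WT libraries left out. A fit of the WT libraries alone also lost Abca1, Actn1, Ets1, Hk2, Ikzf3, Klrc3, Pcna and Slc43a1, log2(RPKM + 1) without a filter Abca1, Ccl1, Ets1, Nt5e, Pcna, S1pr5 and Slc43a1, DESeq2 Gpx8, the likelihood-ratio test Ets1, log2(RPKM + 1) Ets1 and S1pr5, log2(RPKM + 0.1) Ets1, and leaving out a STAT3KO library Actn1 and Ets1. Depth limited what can be said of genes near the floor of 3 counts.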

Other observations

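Some genes that differed between WT CD8 and WT CD4 T cells lay side by side. In 28 places of the genome, at least 3 neighbouring tested genes were all called in the same direction with a difference of at least 2-fold, 15 higher and 13 lower in CD8, with 89 genes in all of the 1384 called at that size. These places were picked after the values were seen, and no test of the number was made. The longest held 6 genes on chromosome 6 (129578286 to 129678973 on mm10), Klre1, Klrd1, Klrk1, Klrc3, Klrc2 and Klrc1, of which Klre1 was not called without WT CD4 replicate 2 and Klrc3 without either WT CD4 replicate or WT CD8 replicate 1. Other places held Gzma and Gzmk with Gpx8, Gzmb with Gzmc and Gzmf, and Serpinb1a, Serpinb6b and Serpinb9, which include copies of similar sequence. Gpx8 (0 and 1 counts) and Gzmf (3 and 1 counts) were under the filter's minimum count in WT CD4 and passed through other groups. In WT CD8 this held for Ascl2 (0 counts), beside Tspan32 and Cd81, and for Il17rb (2 and 1 counts), beside Chdh and Cacna1d. The direction of such genes adds nothing, and their places reached 3 genes only with them. Ctla2a and Ctla2b, which encode inhibitors of cysteine proteases, were both higher in CD8. Ctla2a had 40.2 and 53.6 CPM in WT CD4 and 137 and 174 CPM in WT CD8 T cells (log2 fold change 1.73, adjusted p 0.000988, edgeR). Ctla2b had 13.2 and 12.8 CPM in WT CD4 and 40.4 and 43.5 CPM in WT CD8 T cells (log2 fold change 1.69, adjusted p 0.00032, edgeR).

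Metallothioneins, which bind zinc and copper, were higher in CD8. Mt1 had 9.28 and 8.6 CPM in WT CD4 and 27.8 and 35.4 CPM in WT CD8 T cells (log2 fold change 1.82, SE 0.16, adjusted p 0.000335, edgeR). Mt2 had 3.34 and 4.06 CPM in WT CD4 and 15.3 and 15.9 CPM in WT CD8 (log2 fold change 2.07, SE 0.27, adjusted p 0.00153), and both kept their calls under every alternative. Mt3 (1.07) was called too, but kept its call in only 10 of 18 alternatives, losing it without WT CD4 replicate 2, either WT CD8 replicate or any 1 of the STAT3KO libraries and in a fit of the WT libraries alone. Ifitm1, Ifitm2 and Ifitm3, which encode interferon-induced membrane proteins, were lower in CD8. Ifitm1 had 76.3 and 71.6 CPM in WT CD4 and 19.9 and 29.5 CPM in WT CD8 T cells (log2 fold change -1.58, SE 0.21, adjusted p 0.00176), Ifitm2 62.9 and 55.2 CPM in WT CD4 and 10.3 and 14.1 CPM in WT CD8 (log2 fold change -2.27, SE 0.23, adjusted p 0.000567), and Ifitm3 43.1 and 46.03 CPM in WT CD4 and 7.65 and 15.7 CPM in WT CD8 (log2 fold change -1.93, SE 0.33, adjusted p 0.00514). Next to Cd4, the related gene Lag3 was not called (log2 fold change 0.094).

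Of the genes called, 11 had 0 counts in both libraries of a lineage, 3 in WT CD4 and 8 in WT CD8. Scin, which encodes an actin-severing protein, had 58 and 53 counts in WT CD4 libraries and was at least 42.1-fold lower in CD8, against 3 counts over the group. Tmc3 had 55 and 54 counts and was at least 41.3-fold lower. Among genes known from B cells, Cd79b was higher in CD8 (0.898 and 1.23 CPM in WT CD4, 12.2 and 11.5 CPM in WT CD8, log2 fold change 3.47, SE 0.22, adjusted p 0.000123) and Pax5 lower (16.9 and 9.59 CPM in WT CD4 and 0.648 and 0.59 CPM in WT CD8, log2 fold change -4.40, SE 0.48, adjusted p 0.000676).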
